A study of Mus musculus with 10 samples.

Results

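The genes described here are 9 mouse genes for basic helix-loop-helix (bHLH) proteins. Neurod1, Neurod2, Neurod6 and Neurog2 belong to the NEUROD and NEUROG families, and Bhlhe22 and Bhlhe40 to the BHLHE family. Tcf3, Tcf4 and Tcf12 are E protein genes. The 9 genes were taken by name from 2 lists of N6-methyladenosine (m6A) peaks. Of the 9, 7 carried a peak in the lists as used here, among 8516 genes with a peak in either list. The lists come from m6A-seq of polyadenylated RNA of cortex and hippocampus at postnatal day 5, in which an anti-m6A antibody pulls down RNA fragments (IP) and regions enriched over unselected RNA (input) are called as peaks. The wild-type (WT) group had 3 IP and 3 input libraries, and the Mettl14 knockout (KO) group had 2 of each. The knockout was driven by Nestin-Cre, a recombinase of the neuroepithelial lineage, so microglia and most vessel cells lie outside it, and the sources used here do not say whether WT animals carried Cre or a floxed allele. The labels name both the tissue and a serum-free culture medium, so RNA from tissue and RNA from cultured cells cannot be told apart.

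Proteins of the bHLH class bind E-box DNA as pairs, through a basic region that contacts DNA and a helix-loop-helix that joins the partners. NEUROG2 starts neuron formation in cortical progenitors, and NEUROD1, NEUROD2 and NEUROD6 act in the newborn and maturing excitatory neurons that follow. They pair with broadly expressed E proteins, while BHLHE22 and BHLHE40 act mainly as repressors. METTL14 and METTL3 together form the nuclear enzyme that places most m6A on mRNA, and m6A is known to speed the turnover of many transcripts of fate regulators.

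A single consensus list stood for each genotype, with no value per library, so no comparison below has a replicate error and none was tested. Library depth is unknown here. A listed peak also depends on how strongly its gene was expressed, which the lists do not hold, and fewer cells of a type cannot be told apart from less RNA per cell. The WT list held 15009 peaks and the KO list 3673. Mettl14 itself had 1 WT peak and no KO peak. Of the 5 neuron markers examined, 4 had a WT peak, as did 2 of 3 microglial and 3 of 3 vessel markers, but a peak shows that a transcript was detected, not its level. Coordinates are of GRCm38, counted from 1.

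Only 1 stretch of a member's peaks had a sequence in the tables at hand, and it is shown because it lies in a peak listed in both genotypes. It is the part of the start-side Neurod2 peaks that falls in the window RefSeq gives around the gene start, chr11:98329596-98329615 on the minus strand (GRCm38.p6). It covers bases 31 to 50 of the gene.
Neurod2, bases shared by the WT and KO peak: cactcgctccgcggctcgca
The letters GGAC, the core of the most common m6A sequence context, were searched on the transcript strand and do not occur in these 20 bases. They occur in 7.64% of the 32851 windows of this position and length in the RefSeq table. The rest of each peak lies outside these windows, so this says nothing of the peaks as wholes. Promoter windows were found for 6 of the 9 genes, and no other member's peak reached one.

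Of the 9 genes, 7 had a WT peak and 6 a KO peak. All 6 with a KO peak also had a WT peak, as did 2080 of the 2879 genes in the KO list. Of the protein-coding genes in the RefSeq table, 34.2% had a WT peak and 12.2% a KO peak. The members were taken by name from the peak lists, so their counts cannot be weighed against these shares. A WT peak is called retained below where it shared 1 exonic base or more with a same-strand KO peak. The 7 genes carried 14 WT peaks, of which 7 were retained, or 50% (Wilson 95% interval 26.8 to 73.2, counting error only). Intervals over peaks, here and below, take peaks as independent, though several lie in the same gene, and are not tests. The genes were also chosen with earlier results of these data known. Over the whole WT list the share was 12.9%. A retained peak was present in 5 of the 7 genes, Neurod1, Neurod2, Neurod6, Bhlhe22 and Bhlhe40, against 20.6% of all genes with a WT peak. The 5 genes are all of the listed NEUROD and BHLHE members, and neither listed E protein gene is among them. These counts depend on weak KO peaks and on partial overlap. With the stronger 50% of each list, 2 genes had a retained peak, Neurod6 and Bhlhe22, against 19.3% of genes. With at least 50% of both peaks shared, 2 genes again had one, Neurod2 and Neurod6, against 10.9%.

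**Figure D1:**
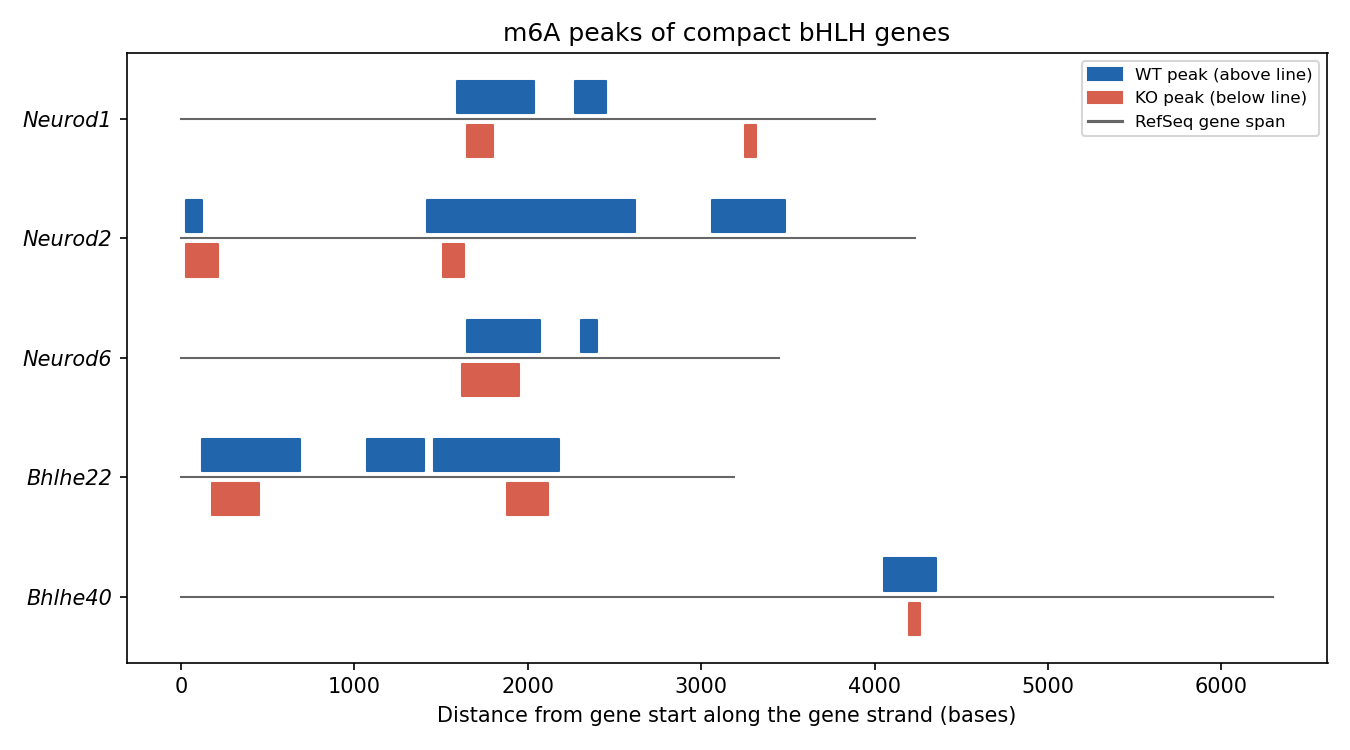
Peaks of the 5 compact bHLH genes along each gene, with WT peaks above and KO peaks below the line of the RefSeq gene span, against the distance from the gene start in bases. Each gene has at least 1 KO peak beneath a WT peak, and the second KO peak of Neurod1 lies beyond both of its WT peaks.

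Neurod1 encodes an activator of early neuronal differentiation. It had 2 WT peaks on chromosome 2, on the minus strand. The first ran from 79454599 to 79455045, with 447 exonic bases, and the second from 79454184 to 79454362, with 179 bases. The first was retained through a KO peak of 149 bases from 79454837 to 79454985, wholly inside it, which covered 33.3% of its length. The second WT peak was not overlapped, and its gap to the nearest KO peak was 474 bases. A further KO peak of 61 bases, from 79453322 to 79453382, had no WT counterpart. It lay 801 bases from the nearest WT peak and had its midpoint 715 bases before the gene end. Summed exonic peak length was 626 bases in WT and 210 bases in KO, of which 149 were shared.

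Neurod6 encodes a factor of pyramidal neurons, and its layout resembled that of Neurod1. Its first WT peak, on chromosome 6 from 55679194 to 55679612, spanned bases 1652 to 2070 of the gene, where the first Neurod1 peak spanned bases 1592 to 2038. Its second, from 55678865 to 55678955, spanned bases 2309 to 2399, where the second Neurod1 peak spanned bases 2275 to 2453. These distances run along the gene and include introns. As in Neurod1, the first peak was retained and the second was not. With at least 50% of both peaks shared, Neurod6 kept a retained peak and Neurod1 did not. The same held with the stronger 50% of each list. The likeness of the 2 genes was not tested. Among genes with 2 WT peaks, 22.7% had at least 1 retained. The single KO peak, from 55679313 to 55679642, had 330 bases, the longest KO peak of the 9 genes, and began 30 bases nearer the gene start than the WT peak. It covered 300 of the 419 WT bases, or 71.6%. Neurod6 thus had 510 peak bases in WT and 330 in KO, the smallest WT to KO ratio (1.55) of the 6 genes with peaks in both lists.

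Neurod2 encodes a factor of cortical neuron maturation and synapse formation. Its 3 WT peaks lay on chromosome 11, on the minus strand. Bases 31 to 120 of the gene held a peak of 90 bases, from 98329526 to 98329615, bases 1422 to 2616 one of 1195 bases, from 98327030 to 98328224, and bases 3064 to 3482 one of 419 bases, from 98326164 to 98326582. The peak of 1195 bases was the widest of the 9 genes. It was met in the KO list by 121 bases, from 98328015 to 98328135, or 10.1% of its length. The 90-base WT peak near the gene start was met by a KO peak of 180 bases from 98329436 to 98329615, which had the same border on the start side, was longer than that WT peak and covered all of it. The KO peaks over a WT peak, their lengths summed, exceeded it for 10.8% of all retained WT peaks. At least 1 shared border was found for 29.7%. The last WT peak had no overlap, with a gap of 1432 bases. Neurod2 had 1704 peak bases in WT and 301 in KO, a ratio of 5.66.

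Bhlhe22 encodes a repressor that works with PRDM8 in cortical and retinal neurons. It had 3 WT peaks on chromosome 3, on the plus strand, from 18054444 to 18055010 (567 bases), from 18055398 to 18055726 (329 bases) and from 18055785 to 18056501 (717 bases). Together they covered 1613 bases, equal to 50.6% of its gene span of 3190 bases, a share that 0.429% of genes with a WT peak and a span reached. The median of these genes was 1.20%. Neurod2, with 40.3% of its span, was in the top 0.911%. Spans include introns, so compact genes score high on this measure. By summed exonic peak length alone, Bhlhe22 was in the top 4.17% and Neurod2 in the top 3.52% of genes with a WT peak. The outer Bhlhe22 peaks were retained and the middle one was not. The KO peaks ran from 18054504 to 18054772 (269 bases) and from 18056203 to 18056441 (239 bases), both wholly inside WT peaks, and covered 47.4% and 33.3% of them. Among genes with 3 WT peaks, 33.8% had at least 1 retained and 7.05% had 2 or more, as both Bhlhe22 and Neurod2 did.

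Bhlhe40 encodes a repressor tied to the circadian clock and to neuronal activity. It had a single WT peak of 300 bases on chromosome 6 from 108664681 to 108664980, on the plus strand. A KO peak of 61 bases, from 108664830 to 108664890, lay inside it and covered 20.3%. Among genes with 1 WT peak, 10.5% had it retained. Of all KO peaks, 11.8% had 61 bases or fewer, which puts this peak and the displaced Neurod1 peak among the shortest in the KO list.

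The E protein genes had 3 WT peaks, none of them retained (Wilson 95% interval 0 to 56.1, counting error only), beside 12.9% of all WT peaks. An interval from 3 peaks of 2 genes is too wide to tell whether the E proteins differ from the whole list, and this was not tested. Tcf3 encodes E12 and E47, splice forms of a single gene. Its WT peaks lay on chromosome 10, on the minus strand, and each spanned 2 exonic blocks. The first ran from 80412950 to 80413331 with blocks of 127 and 113 bases in gene order, and the second from 80409940 to 80410540 with blocks of 143 and 335 bases. The KO list had no Tcf3 peak, a state shared by most genes, since 27.0% of genes with a WT peak had any KO peak. Tcf4 encodes the E protein most linked to neurodevelopmental disease in humans. Its WT peak, on chromosome 18 from 69682767 to 69683439 on the plus strand, had blocks of 57 and 363 bases and a score listed at 0. Of all multi-block WT peaks listed at 0, 77.7% were retained. Its KO peak, from 69678024 to 69681673, had blocks of 106 and 105 bases in other exonic stretches and ended 1093 bases before the WT peak began. A gene with peaks in both lists and none retained was found in 23.8% of such genes, so the Tcf4 pattern was not rare. Tcf12, the remaining E protein gene, and Neurog2 had no peak in either list as used here, and since the lists used here may not hold every row, this does not show that their transcripts lacked a peak. No peak under another gene name lay in the span of any of the 9 genes.

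**Figure D2:**
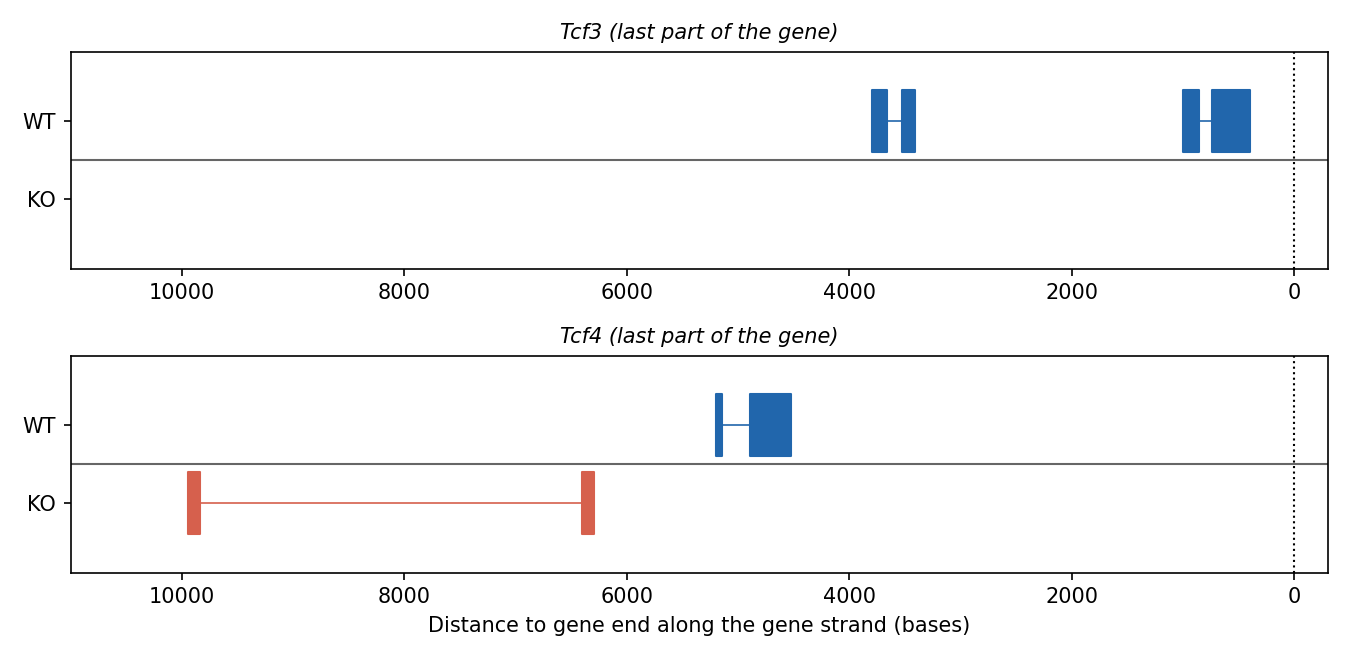
Peaks of Tcf3 and Tcf4 in the last part of each gene, by distance to the gene end in bases (dotted line at 0), with WT peaks above and KO peaks below the line. Boxes are exonic blocks and thin lines join the blocks of a peak. The Tcf4 KO peak has its blocks upstream of the WT peak, and Tcf3 has WT peaks alone.

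All 3 E protein peaks lay on several exonic blocks, as did 23.5% of all WT peaks, while all 11 peaks of the other members lay on a single block, and 7 of these 11 were retained. Over the whole WT list the order was the other way round, with 28.9% of multi-block peaks retained and 7.97% of single-block peaks. With 3 peaks of 2 genes on the E protein side, the contrast between E proteins and the other members was not tested. The number of blocks also depends on how the exons of a gene are laid out, which was not examined.

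In the 4 genes with 2 or 3 WT peaks and a retained peak, the WT peak nearest the gene start was retained in 4 of 4 and the one nearest the gene end in 1, that of Bhlhe22. Among all such genes the shares were 54.6% and 45.2%. This view was chosen after the values were seen and covers 4 genes. Near the gene end itself, within 1000 bases, lay 2 of the 14 WT peaks, the last of Neurod2 and of Tcf3, and neither was retained. The shares over the whole lists were 15.9% for WT and 16.1% for KO peaks, and 1 of the 9 KO peaks of these genes, in Neurod1, lay there.

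**Figure D3:**
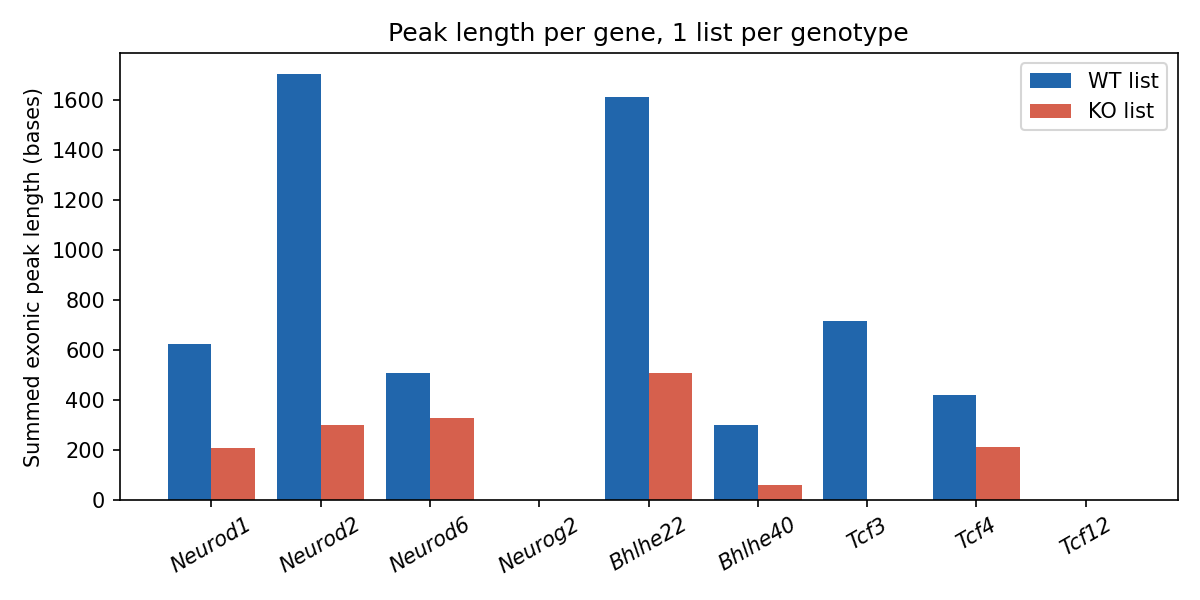
Summed exonic peak length in bases for each of the 9 genes in the WT and KO list. There are no error bars, since each genotype has 1 list. WT bars exceed KO bars in all 7 genes with peaks, and Neurog2 and Tcf12 have none. The WT list also holds more peaks than the KO list over all genes.

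Summed over the 9 genes, peaks covered 5891 exonic bases in the WT list and 1621 in the KO list, a ratio of 3.63, in 14 and 9 peaks. KO peaks met 1229 of the WT bases, or 20.9%. The WT list was the longer one over all genes, with 15009 peaks against 3673. No summed length over the whole lists is given here, so neither value is shown to be particular to these genes. The median peak of these genes had 419 exonic bases in WT (90 to 1195) and 180 bases in KO (61 to 330), against 208 and 151 over all peaks of each list. Of the 9 KO peaks, 7 lay over a WT peak, or 77.8% (interval 45.3 to 93.7), beside 57.1% of all KO peaks. This excess was absent with the stronger 50% of each list (60% of the members' peaks and 61.9% of all) and with at least 50% of both peaks shared (22.2% and 25.6%). Of the 7, 5 lay wholly inside the WT peak.

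Of the 14 WT peaks of these genes, 10 lay in the strongest 20% of the list by the authors' score, read here as a p-value or q-value, where 0 stands for a value too small to be held. Listed at 0 were 6 of the 14, namely both Neurod6 peaks, the first Neurod1 peak, the outer 2 Bhlhe22 peaks and the Tcf4 peak, against 5.09% of all WT peaks. Of these 6, 4 were retained, and of the 8 others, 3. Over the whole list, 51.2% of the peaks listed at 0 were retained and 10.8% of the others. For single-block peaks listed at 0 the share was 36.5%, or 46.0% where they had 400 exonic bases or more, and 4 of 5 in the members. Among genes with 1 to 3 WT peaks and at least 1 listed at 0, 60.1% had a retained peak, and 3 of the 4 such members did, the exception being Tcf4. WT strength therefore moves with retention, and its part in the members' share was not tested. Neurod2 and Bhlhe40 had retained peaks without any score of 0.

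**Figure D4:**
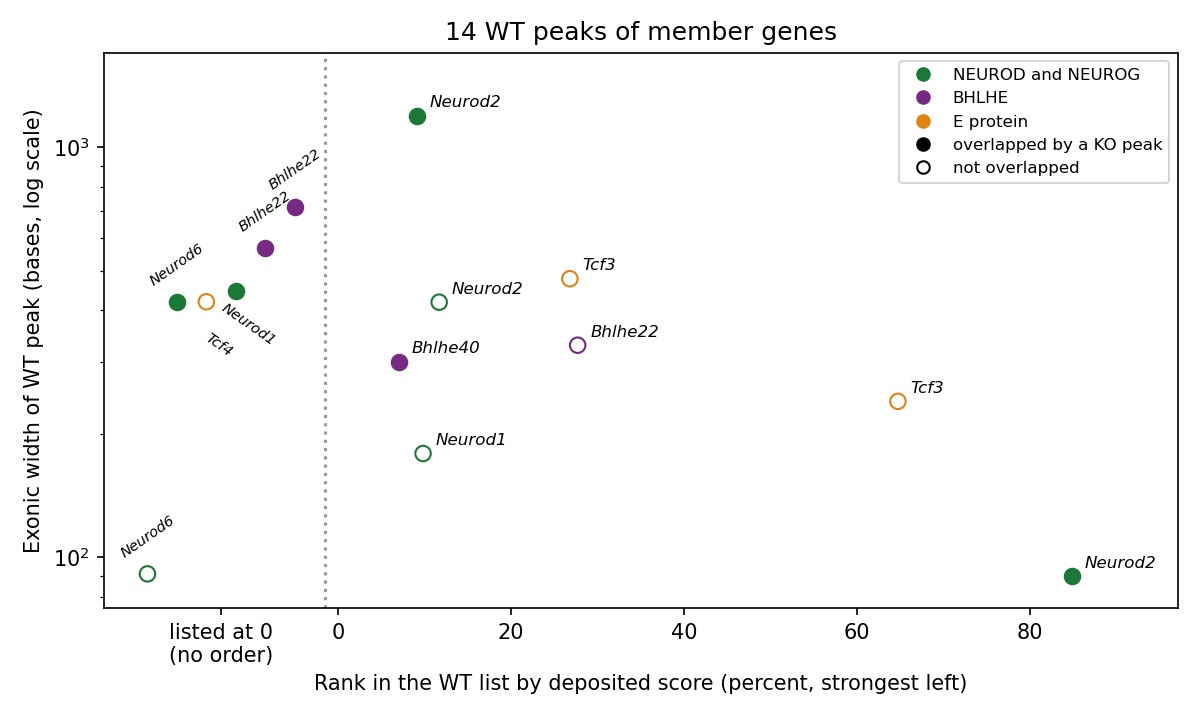
Exonic width in bases (log scale) of the 14 WT peaks against their rank in the WT list in percent. Peaks listed at 0 have no order and are spread sideways left of the dotted line. Filled points are retained, open points are not, and colours give the family. The start-side Neurod2 peak is the weakest and narrowest, and is filled.

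The start-side peak of Neurod2 stood apart from the other retained peaks. Its score of 3.2e-12 put it at 84.8% of the WT ranking, while the other 6 retained peaks lay in the strongest 20%. Of the 4 members' peaks beyond the strongest 20%, it alone was retained. In the whole list 31.0% of the strongest 20% were retained and 8.36% of the remainder. The KO peak of Neurod6 was listed at 0, as were 2.18% of all KO peaks, and the first KO peak of Bhlhe22 had a score of 1e-264 and rank 97 of 3673. The second Bhlhe22 peak (5e-30) lay at 24.1% and the Tcf4 peak (1e-25) at 27.7% of the KO ranking. The other KO peaks were weaker, with the displaced Neurod1 peak at 46.6% and the 4 overlapping peaks of Neurod1, Neurod2 and Bhlhe40 between 65.4% and 86.5%. Ranks hold within a list and are not compared between the lists.

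**Figure D5:**
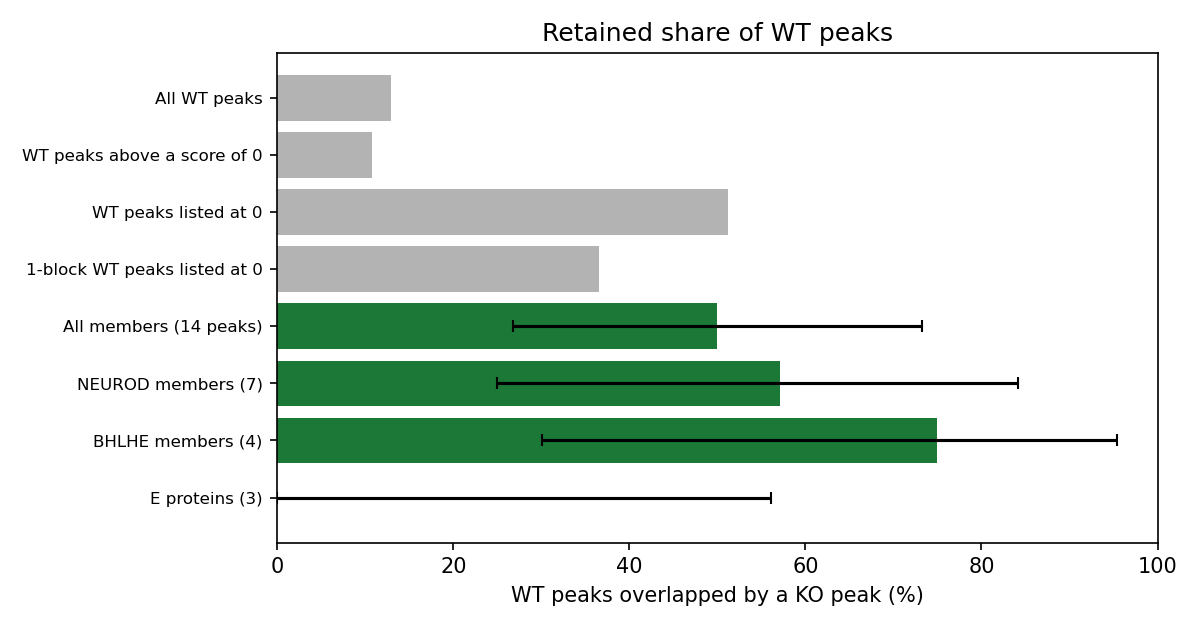
Percent of WT peaks overlapped by a KO peak, in grey for classes of the whole WT list and in green for the members, with Wilson 95% intervals as lines. The intervals take peaks as independent, though several lie in the same gene, and are not tests. The members' 50% lies above the 12.9% of all WT peaks. It covers 14 peaks, of which 6 were listed at 0, so it is not of the same class as the 51.2% of peaks listed at 0. No E protein peak is overlapped.

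Genes that work with these factors were listed by role, 63 in all. A WT peak was found in 36 of them and a retained peak in 8 of these, or 22.2% (interval 11.7 to 38.1), near the 20.6% of all genes. By peaks, 9 of 82 were retained, or 11.0% (5.88 to 19.6), beside 12.9%. Of 6 other OLIG and BHLHE genes, Olig1 had 3 and Olig2 had 2 WT peaks, with none retained, and Bhlhe23, a close relative of Bhlhe22, had a KO peak of 91 bases and no WT peak.

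Most proteins of the ID, HES and HEY families keep bHLH activators or their target genes silent. Of 13 genes of these families, 5 had a WT peak and Id4 alone a retained one, with 269 peak bases in WT and 210 in KO. Hey1, Hes6 and Heyl had 2 WT peaks each and none retained. Of 13 cofactors, 11 had a WT peak and 4 a retained one. These were Ldb1 (1 of 2 peaks), which bridges LIM proteins and bHLH complexes, its partner Lmo4 (1 of 2), and the acetyltransferase genes Ep300 and Crebbp (1 of 4 each). The corepressor gene Cbfa2t3 had 4 WT peaks with none retained and no KO peak, as had Runx1t1 with 2. Prdm8, which encodes the partner of BHLHE22, had 3 WT peaks over 1291 bases, none retained, and a KO peak of 181 bases elsewhere.

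Of 20 genes of the cortical neurogenic cascade, 17 had a WT peak and 3 a retained one. These were Bcl11b, a gene of subcortical projection neurons (2 of 4 peaks), the upper-layer gene Cux2 (1 of 5) and Gadd45g (1 of 1). Plxna2 and Kif26a had 5 WT peaks each and Cux1 had 4, with no KO peak. Eomes and Tbr1, which encode the T-box factors of intermediate progenitors and early neurons, had 2 and 1 WT peaks and none in KO.

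Markers of cell types that such tissue can hold were read in the same way, beside the 20.6% of all genes and 12.9% of all WT peaks. Neuron markers had a share of retained peaks near that of the bHLH members, with 7 of 12 peaks retained. A retained peak was present in all 4 genes with a WT peak (Rbfox3, Elavl3, Stmn2 and Tubb3). The best WT score was listed at 0 in Rbfox3, Elavl3 and Tubb3 and was 1e-180 in Stmn2. Of all WT peaks listed at 0, 51.2% were retained. Of markers of excitatory cortical neurons, the cells in which NEUROD2 and NEUROD6 act, 1 of 4 genes had a retained peak, Slc17a7, and 1 of 7 peaks was retained. Of inhibitory neuron markers, 1 of 3 genes had a WT peak, and none of its 3 peaks was retained. Astrocyte markers had a retained peak in 2 of 4 genes, Aldh1l1 and Sox9, and in 2 of 6 peaks, and oligodendrocyte lineage markers in none of 4 genes and 15 peaks. Of markers of cells outside the Nestin lineage, retention was seen in 1 of 2 listed microglial genes, Cx3cr1 (1 of 4 peaks in all), and in 1 of 3 vessel genes, Cdh5 (2 of 5 peaks in all), while C1qa, Cldn5 and Pecam1 had no KO peak. The part of any cell type in the members' peaks was not tested.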

How the data were processed

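The authors deposited 1 consensus peak list per genotype, with the position, strand, gene name, exonic blocks and score of each peak. The deposited score was read as a p-value or q-value, since all lie between 0 and 0.00015. The files do not say which. Per the submitters' processing notes, STAR and GRCm38 were used. The sources used here do not give the peak caller, its thresholds, the exon annotation or the pooling of libraries, nor whether libraries came from separate animals.

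Entries of a list that shared exonic bases on the same strand were merged (15091 WT entries to 15009 peaks, 3733 KO entries to 3673). Peaks were given to genes by the deposited name, and gene spans came from a RefSeq table of GRCm38.p6. Overlap was scored in Python 3.11.15 with pandas 2.3.3 and numpy 2.4.6, after the overlap code was tested on simulated peaks. Wilson intervals came from scipy 1.17.1. The design held no test. The genes, the 5 related lists and the alternatives were chosen with earlier results of these data known. Every member was named, with, per related list, the genes with a retained peak and up to 3 with most WT peaks and none retained. Bhlhe23, Eomes and Tbr1 were named beyond that rule, after their values were seen, and 1 list is not reported here by itself. Coding sequence and untranslated regions were not told apart, since no exon annotation was used here.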

Additional observations from a re-analysis of the deposited data

How the results depend on the processing

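No paired analysis was possible because each genotype has a single pooled list, which also bars leaving out a replicate. Allowing a gap of 100 bases, ignoring strand, using whole spans, leaving entries unmerged and leaving out KO peaks at 8 recurring scores each left 5 genes with a retained peak and 50% of WT peaks retained, as reported. With only as many of the strongest WT peaks as the KO list holds, 5 of 6 genes and 60% of WT peaks had this state, against 34.3% and 28.6% of all genes and peaks. With 50% of both peaks shared, the members' values moved to 2 genes, 14.3% of WT peaks (6.26% of all) and 22.2% of KO peaks (25.6% of all), and 3 of the 36 related genes had a retained peak in place of 8. With the stronger 50% of each list they moved to 2 genes and 25.0% of WT peaks (14.1% of all), with 60% of KO peaks (61.9% of all). Leaving out each member in turn, added after seeing the data, gave 45.5% to 58.3%. The number of member peaks near the gene end moved from 2 WT and 1 KO peaks to 0 and 0 with a window of 500 bases and to 14 and 8 with 5000 bases, as the windows' construction implies. Depth is unknown here and 14 peaks give wide intervals.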
